A study of Homo sapiens with 5 samples.

Results

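ESR1 is the gene that encodes oestrogen receptor α (ERα), and the peaks described here were called in ChIP libraries made with an antibody to ERα. They were chosen by position, as the peaks of 4 lists that lay inside an interval of 297 kb given for ESR1 on chromosome 6 of the human build hg18. The interval itself was chosen by measured values, since it had been noticed through peaks common to VCaP and VCaP + E2. Its placement at ESR1 was taken from the rule and was not checked by position, as no gene positions of hg18 were used here. Of 6565 peaks in the 4 lists, 21 met this rule. The number, density and sharing of the peaks in the interval follow from that choice and are descriptions.

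ERα is a nuclear receptor that binds oestrogen and then attaches to DNA, often at a palindrome called the oestrogen response element, and it can also reach DNA through other factors. In breast cancer cells it is known to bind at its own gene. ESR1 is a long gene in which short exons are separated by long introns and several promoters give different first exons. Its message, once spliced, contains the exons only. Whether the peaks mark receptor bound at its own gene, or sequence of the spliced receptor that was read in the libraries, was the question put to these positions.

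The ChIP-seq libraries came from established prostate cancer lines and were made with 1 antibody to ERα. VCaP is an androgen-sensitive line. VCaP ERα is the same line made to overexpress the receptor stably, and the study's methods list a plasmid, pcDNA3.1-ERα, that carries the receptor. NCI-H660 is a neuroendocrine line, whose growth medium contained 17β-oestradiol (E2) and hydrocortisone. The groups were VCaP without E2 (passages 3 to 4), VCaP + E2 (passages 3 to 4), VCaP ERα + E2 (passages 10 to 12) and NCI-H660 + E2 (passages 4 to 5). The labels give hormone starvation of 48 h followed by 10 nM E2 over 14 h for VCaP and NCI-H660. For VCaP ERα + E2 the labels state neither dose nor time, and they do not state whether VCaP without E2 was starved. VCaP + E2 and NCI-H660 + E2 were read on a Genome Analyzer II and the other libraries on a HiSeq, so that instrument and group cannot be told apart. Each group had 1 library, so replicate error could not be estimated and differences between groups were not tested. A peak is given as a start and an end with no height, and the depth of the libraries is unknown. Input DNA of VCaP was not analysed here.

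Peaks at ESR1 were present in 3 of the 4 lists. VCaP had 7 of its 241 peaks there (2.90% of the list, 95% exact binomial interval 1.18 to 5.89%). VCaP + E2 had 9 of 2505 (0.359%, interval 0.164 to 0.681%), and NCI-H660 + E2 had 5 of 1986 (0.252%, interval 0.0818 to 0.587%). VCaP ERα + E2, from the cells made to overexpress the receptor, had 0 of 1833, and 3 counts of that list, taken as the limit for a count of 0, are 0.164% (the exact binomial interval ends at 0.201%). These intervals and limits cover counting error only and treat peaks as independent, which neighbouring peaks are not. They take no account of the choice of the interval for these same peaks, so they do not compare the lists. The VCaP list was the shortest and had the highest share of its peaks at ESR1.

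The nearest peak outside the interval lay at least 1.26 Mb from the peaks at ESR1 in each list that had them. In VCaP, 7 of the 8 peaks on the chromosome were at ESR1, and the remaining one lay 93.3 Mb away, from 58884075 to 58888209. In VCaP + E2 the nearest peaks outside were from 149233854 to 149234017 (2.94 Mb below) and from 153719353 to 153719518 (1.26 Mb above). In NCI-H660 + E2 they were from 141331702 to 141331876 (10.8 Mb below) and from 159340966 to 159341095 (6.88 Mb above). VCaP ERα + E2 had 5 peaks on chromosome 6, and the one closest to ESR1 was 118 Mb away, from 34324325 to 34324508. Widening the interval by 100 kb on each side added no peak to any list.

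The 21 peaks fell on 9 sites, numbered here from the lowest position, which is also the direction in which ESR1 is transcribed. Each site was in at least 2 lists, and no site was particular to 1 list. VCaP + E2 had a peak at all 9 sites. VCaP had a peak at sites 1, 2, 4, 5, 6, 7 and 8, and NCI-H660 + E2 at sites 1, 3, 4, 5 and 9. Sites 1, 4 and 5 were in these 3 lists. Sites 3 and 9 were in VCaP + E2 and NCI-H660 + E2 and not in VCaP. Those lists had in common E2, the Genome Analyzer II and a greater length than VCaP (2505 and 1986 peaks against 241). VCaP ERα + E2 also had E2 and a long list (1833 peaks), was read on a HiSeq and had neither site. It differed in receptor level and passage as well. With 1 library for each group these traits cannot be told apart here, and their part was not tested. Sites 2, 6, 7 and 8 were in VCaP and VCaP + E2 and not in NCI-H660 + E2. Over the whole series 17 sites were in 3 lists, and 9 of these were in the same 3 lists as sites 1, 4 and 5. Both counts include sites 1, 4 and 5 themselves.

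**Figure D1:**
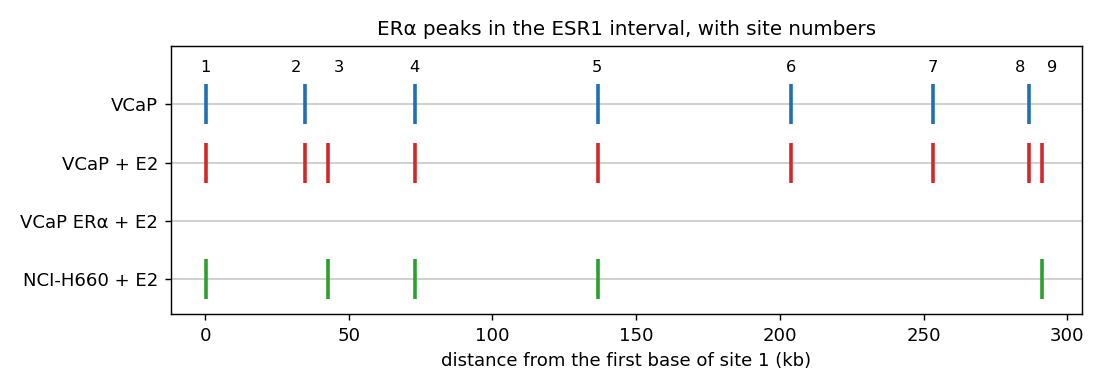
Positions of the ERα peaks at ESR1 in each list, as the distance in kb of the peak midpoint from the first base of site 1, with site numbers on top. VCaP + E2 has all 9 sites, VCaP 7, NCI-H660 + E2 5 and VCaP ERα + E2 none.

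Positions are given on hg18, counted from 1. Site 1, the widest, ran in VCaP + E2 from 152170609 to 152171324 (716 bp), in VCaP from 152170653 to 152171279 (627 bp) and in NCI-H660 + E2 from 152170776 to 152171216 (441 bp). The VCaP peak lay inside the VCaP + E2 peak and the NCI-H660 + E2 peak inside both. Site 2 ran in VCaP + E2 from 152205290 to 152205751 (462 bp) and in VCaP from 152205337 to 152205707 (371 bp). Site 3, absent from VCaP, ran in VCaP + E2 from 152213102 to 152213418 (317 bp) and in NCI-H660 + E2 from 152213207 to 152213406 (200 bp). It was the narrowest VCaP + E2 peak of the 9.

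Site 4 ran in VCaP + E2 from 152243351 to 152243732 (382 bp), in VCaP from 152243393 to 152243689 (297 bp) and in NCI-H660 + E2 from 152243544 to 152243658 (115 bp). The last of these was the narrowest of the 21 peaks and lay entirely above the midpoint of the VCaP + E2 peak. Site 5 ran in VCaP + E2 from 152306870 to 152307468 (599 bp), in VCaP from 152306914 to 152307423 (510 bp) and in NCI-H660 + E2 from 152307026 to 152307365 (340 bp). It was second in width to site 1 in each of the 3 lists.

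Site 6 ran in VCaP + E2 from 152374349 to 152374757 (409 bp) and in VCaP from 152374395 to 152374709 (315 bp). Site 7 ran in VCaP + E2 from 152423686 to 152424087 (402 bp) and in VCaP from 152423728 to 152424044 (317 bp). These sites, of almost the same width, were both absent from NCI-H660 + E2. Site 8 ran in VCaP + E2 from 152457076 to 152457529 (454 bp) and in VCaP from 152457124 to 152457484 (361 bp). Site 9, the last, ran in VCaP + E2 from 152461426 to 152461925 (500 bp) and in NCI-H660 + E2 from 152461557 to 152461822 (266 bp). Among the VCaP + E2 peaks it was wider than all but those of sites 1 and 5, and was not in the VCaP list.

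The sites were short and far apart. From the first base of site 1 to the last base of site 9 was 291 kb, of which the sites covered 1.46% (4241 bp). The stretch between neighbouring sites was 34.0 kb from site 1 to 2, 7.35 kb from 2 to 3, 29.9 kb from 3 to 4 and 63.1 kb from 4 to 5. It was 66.9 kb from site 5 to 6, 48.9 kb from 6 to 7, 33.0 kb from 7 to 8 and 3.90 kb from 8 to 9. The shortest stretch without a peak was thus at the high end of the interval and the longest in its middle. Sites were made by merging all the peaks, so by definition no list had a peak away from them.

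At the sites they shared, VCaP peaks had the extent of the VCaP + E2 peaks less a nearly constant strip at each edge. The start margin, the number of bases by which the VCaP peak began inside the VCaP + E2 peak, was 44 bp at site 1, 47 bp at site 2, 42 bp at site 4, 44 bp at site 5, 46 bp at site 6, 42 bp at site 7 and 48 bp at site 8. The end margin was 45, 44, 43, 45, 48, 43 and 45 bp at the same sites. All 14 margins were thus between 42 and 48 bp, and the margins of a site differed by at most 3 bp. The VCaP + E2 peak was 85 to 94 bp wider at each of the 7 sites, whether the VCaP peak was 297 or 627 bp wide. Midpoints of the pairs differed by at most 1.5 bp.

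This was not seen where these lists overlapped elsewhere. The other 14 overlapping pairs of a VCaP and a VCaP + E2 peak came from 11 VCaP peaks. Of these pairs, 0 had the VCaP peak inside the VCaP + E2 peak. With the 7 pairs at ESR1 counted, the share was 33.3% of 21. In the other pairs the VCaP + E2 peak was mostly the narrower one, so it could not contain the VCaP peak. Its width less that of the VCaP peak had a median of -479.5 bp. It was wider by 85 bp or more in 1 of the 14, as it was in all 7 at ESR1. The median start margin of the other pairs was -368 bp and their median end margin -248 bp. A negative margin means that the VCaP peak reached beyond the VCaP + E2 peak. The smallest difference of midpoints among them was 14 bp and the median 201 bp. The bases common to both peaks made up 77.0 to 87.6% of the bases covered by either at ESR1 (median 79.5%), against a median of 30.5% elsewhere, where 3 of the 14 pairs reached 77.0% or more. No test was made of this difference, since the same peaks had been seen when the interval was chosen.

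**Figure D2:**
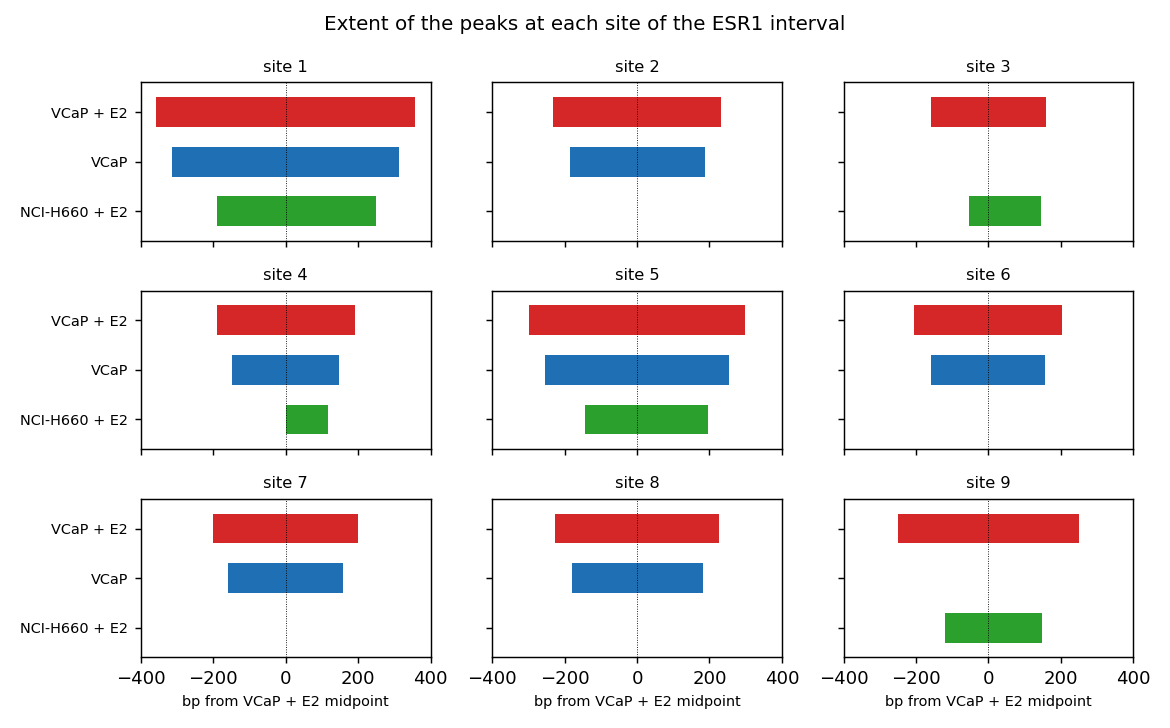
Extent of each peak at the 9 sites in bp from the midpoint of the VCaP + E2 peak, with 1 bar for each list and no bar where a list had no peak. VCaP bars are shorter than VCaP + E2 bars by 42 to 48 bp at each edge, and NCI-H660 + E2 bars lie inside the VCaP + E2 bars, and inside the VCaP bars at sites 1, 4 and 5, and reach further to the right of the midpoint than to the left.

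NCI-H660 + E2 peaks were also contained in the VCaP + E2 peaks, but with wider and less even margins. The start margin was 167 bp at site 1, 105 bp at site 3, 193 bp at site 4, 156 bp at site 5 and 131 bp at site 9. The end margin was 108 bp at site 1, 12 bp at site 3, 74 bp at site 4 and 103 bp at both site 5 and site 9. The start margin was the larger one at 5 of 5 sites, so that each NCI-H660 + E2 peak was shifted to higher positions, by 14 bp at site 9 up to 59.5 bp at site 4. Against VCaP the same held at 3 of 3 sites, with start margins of 112 to 151 bp and end margins of 31 to 63 bp. This is not a separate observation, since the midpoints of VCaP and VCaP + E2 peaks differed by at most 1.5 bp.

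Between these lists a contained peak was common outside ESR1. Of 896 other overlapping pairs, 470 had the NCI-H660 + E2 peak inside the VCaP + E2 peak (52.5%). With the pairs at ESR1 counted, the share was 52.7% of 901. The start margin was the larger one in 49.9% of the other pairs. The difference in width was 117 to 275 bp at ESR1, while the median elsewhere was 25.5 bp, and 23.8% of the other pairs differed by 117 bp or more. The overlap was smaller at ESR1, with a median of 56.8% of the bases covered by either peak (30.1 to 63.1%), against 82.2% elsewhere. For NCI-H660 + E2 inside VCaP the share was 54.5% of 11 pairs in all, of which 3 were at ESR1.

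The VCaP peak contained the NCI-H660 + E2 peak and was itself contained in the VCaP + E2 peak at 3 of the 3 sites in these 3 lists. Of the 7 other VCaP peaks that overlapped both lists, 0 had edges in this order. Both counts follow from the containments already given for each pair of lists and are not a further result.

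**Figure D3:**
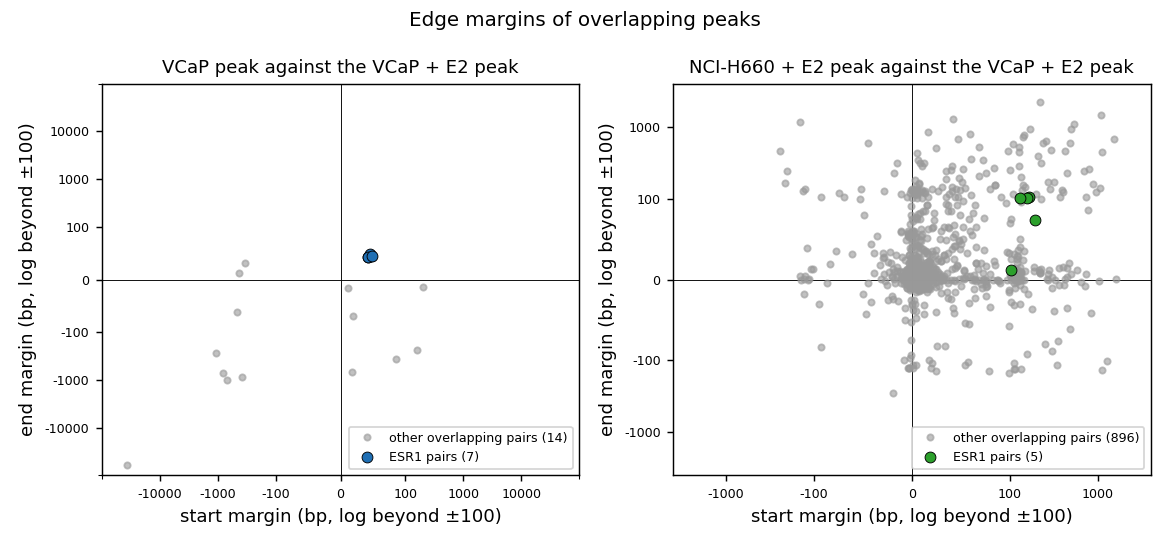
Start margin against end margin in bp for each overlapping pair, with VCaP (left) and NCI-H660 + E2 (right) set against VCaP + E2, on axes that are linear up to 100 bp and logarithmic beyond. The 7 VCaP pairs at ESR1 fall on nearly 1 spot at 42 to 48 bp, and the other 14 have a negative margin on at least 1 side, whereas the 5 NCI-H660 + E2 pairs at ESR1 lie among the other 896.

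Sharing between the lists was then set against the whole lists, where sharing meant an overlap of 1 bp or more. At ESR1, VCaP had all its peaks in common with VCaP + E2: 7 of 7 were shared, against 7.47% of the VCaP list (18 of 241). ESR1 therefore held 38.9% of the VCaP peaks that were in VCaP + E2. Of the VCaP peaks at ESR1, 3 of 7 were shared with NCI-H660 + E2, against 4.15% of the list (10 of 241). Seen from the longer lists, 7 of 9 VCaP + E2 peaks at ESR1 were shared with VCaP, against 0.838% of that list, and 3 of 5 from NCI-H660 + E2, against 0.554%.

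Between VCaP + E2 and NCI-H660 + E2 sharing was frequent throughout. At ESR1, 5 of 5 NCI-H660 + E2 peaks were shared with VCaP + E2, against 45.3% of the list, and the reverse count was 5 of 9, against 34.9% of the VCaP + E2 list. With 9 peaks the reverse count is not far from its background. The peaks of 1 list at ESR1 are not independent of each other, and the counts for VCaP and VCaP + E2 were what drew attention to the interval.

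The interval was chosen for its peaks, so the density elsewhere in the lists is given only as a description. On each chromosome the span from the lowest to the highest peak of all lists was divided into tiles of 297 kb, 9995 in all. No stretch of the span was removed, so tiles where no peak could be called are counted too. With the peaks at ESR1 left out, 6 tiles held 7 or more VCaP peaks (0.06%), 2 of them outside chromosomes 13, X and Y. In VCaP + E2, 27 tiles held 9 or more peaks (0.27%), of which 5 were outside these chromosomes. In NCI-H660 + E2, 43 tiles held 5 or more (0.43%), of which 38 were outside them. VCaP peaks shared with VCaP + E2, on which the interval had been noticed, numbered at most 2 in another tile. For peaks of NCI-H660 + E2 in VCaP + E2, 10 other tiles held 5 or more.

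The median peak at ESR1 was wider than the median of the other peaks in each of the 3 lists. In VCaP + E2 the peaks had a median width of 454 bp (317 to 716 bp), 2.69 times the median of 169 bp for the other 2496 peaks, and all 9 were above it. Of the other peaks, 16.7% were at least as wide as the narrowest peak at ESR1 and 2.92% at least as wide as the widest. On chromosome 6 alone, 7 of the other 58 peaks reached 317 bp. In VCaP the median was 361 bp (297 to 627 bp) against 242.5 bp for the other 234 peaks, of which 40.6% were at least as wide as the median at ESR1, 44.4% as the narrowest and 25.2% as the widest. In NCI-H660 + E2 it was 266 bp (115 to 441 bp) against 166 bp for the other 1981, of which 19.6% were at least as wide as the median at ESR1, 89.4% as the narrowest and 5.35% as the widest. Here 4 of 5 peaks were above the median of the other peaks. Set against only those other peaks that overlapped another list, the share at least as wide as the median at ESR1 was 15.9% in place of 8.29% for VCaP + E2. It was 34.0% in place of 19.6% for NCI-H660 + E2 and 48.6% in place of 40.6% for VCaP. Peaks at ESR1 made up 0.689% of the length covered by VCaP + E2, 1.09% of VCaP and 0.327% of NCI-H660 + E2.

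**Figure D4:**
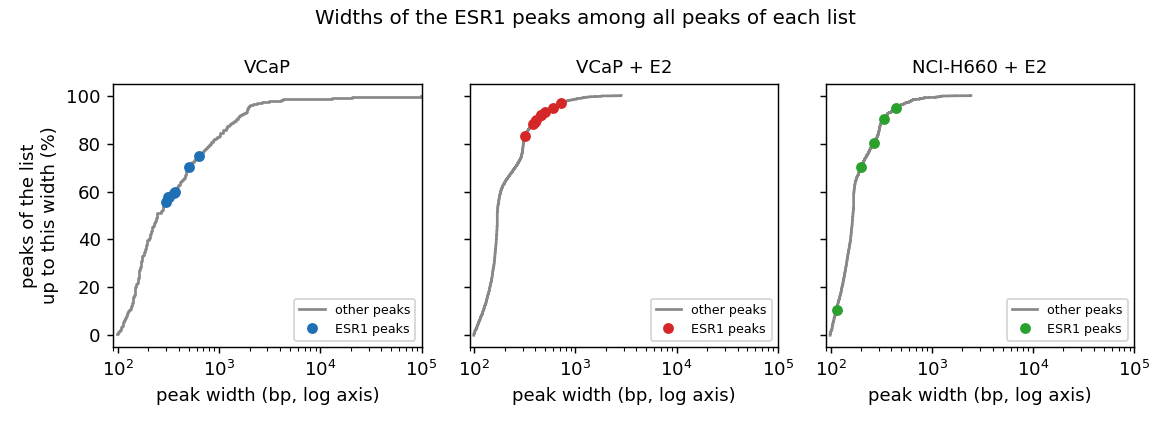
Cumulative share of the peaks of each list, in percent, by width in bp on a log axis, with the peaks at ESR1 as points on the curve of all other peaks. The 9 VCaP + E2 points lie in the upper 16.7% of their list, the VCaP points in the upper 44.4% of theirs, and the NCI-H660 + E2 points reach down into the upper 89.4% of theirs.

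Exon positions of ESR1 on hg18 were not used here, as the reference was a gene table of another build (GRCh38.p14) without exons. The sites were therefore not set against the coding exons, and neither their order nor their widths or edges could be measured against exon limits. Whether they coincide with exons was not tested. The bases under the peaks are not shown, since no sequence of hg18 was used here. Neighbouring genes in that table are CCDC170 before and SYNE1 after ESR1, and SYNE1 overlaps the end of ESR1 there.

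Sequence was available for the starts of ESR1 transcripts, and since the receptor acts through its response element, the starts were searched for it. RefSeq gives 6 windows for ESR1 (250 bases before to 50 after a start, GRCh38.p14). The palindrome GGTCANNNTGACC, which reads the same on both strands, was in 0 of the 6 and in 0.057% of all 35116 windows. One arm of it, GGTCA, searched on both strands and also contained in the palindrome, was in 1 of the 6 and in 37.4% of all windows. The bases before that start, on the + strand from chr6:151690277-151690526 of GRCh38.p14, are shown because it is the only ESR1 window with a match, with the arm in capitals, its first base 29 bases before the start:
ESR1 start: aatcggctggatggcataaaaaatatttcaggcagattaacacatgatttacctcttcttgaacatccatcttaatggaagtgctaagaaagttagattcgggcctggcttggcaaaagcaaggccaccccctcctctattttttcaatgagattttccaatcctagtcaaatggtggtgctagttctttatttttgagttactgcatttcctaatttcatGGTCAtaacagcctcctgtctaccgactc
A match of letters is not a binding site, and its place relative to the 9 sites cannot be given across builds.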

How the data were processed

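The authors deposited 1 peak list for each of the 4 ChIP libraries, with positions in bp in 3 columns and no score. The submitters' processing notes name hg18 and CASAVA 1.8, and the study names ChIPSeeqer as peak caller. The aligner, the threshold, filters on repeated reads and the use of input are not given in the sources used here. A peak's edges depend on fragment length, threshold and depth, and all of these may differ between libraries. Chromatin was sheared to 200 to 700 bp and, after 15 cycles of PCR, library fragments of 200 to 300 bp were isolated.

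Listed starts were taken as 0-based, and positions are printed 1-based. The members, the gene and the lists were chosen with earlier results of these data known. Every peak in the interval is named, with the nearest peak outside it. Sites are peaks of all lists merged where at least 1 bp overlapped. Groups came from the labels, and values are descriptions without a test, since each group had 1 library. The overlap code was tested on simulated data. Not run for lack of hg18 gene positions were the comparison with exons and a count of peaks at 20 other genes of the pathway. Other settings tried were sharing by 50% of the shorter peak or by midpoints within 100 bp, merging within 1000 bp, the wider 50% of a list, an interval widened by 100 kb and tiles shifted by 50% of their length. Python 3.11.15, numpy 2.4.6, pandas 2.3.3, scipy 1.17.1 and matplotlib 3.10.9 were used.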

Additional observations from a re-analysis of the deposited data

How the results depend on the processing

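Of 37 alternatives to 16 results, 32 left the value within 1.5 times of a count or within the exact binomial interval of a share. The number of peaks at ESR1 was the same in each list with merging within 1000 bp and with the wider interval. The number of sites was the same with midpoints within 100 bp, and the number of shared peaks with that rule and with 50% overlap. With the wider 50% of each list, the 115 bp peak of NCI-H660 + E2 at site 4 was lost. That left 4 peaks in that list, 4 shared with VCaP + E2 and 2 VCaP peaks shared with NCI-H660 + E2. The share of other peaks as wide as the median at ESR1 was 29.3% in VCaP without chromosomes 13, X and Y. Among other peaks that overlapped some other list it was 48.6% for VCaP, 15.9% for VCaP + E2 and 34.0% for NCI-H660 + E2. The share of tiles as dense as ESR1 in VCaP + E2 was 0.0558% without 13, X and Y, an alternative chosen after the data were seen. The cause was not tested. The alternatives for exons and for other genes of the pathway were not run, since hg18 gene positions were not used here. No paired analysis was possible because no group had a second library, and no replicate could be left out. Unknown depth limits what an absent peak can show.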
